A study of Mus musculus with 16 samples.

Results

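The 64 genes described here encode the nucleolar machinery that transcribes rRNA, modifies and cuts it, and assembles it with proteins into ribosomal subunits. They were taken from the 22612 genes of the count tables by their names alone (the Nop, Noc, Utp, Rrp, Nol and Exosc families, Polr1a to Polr1e, and Imp3, Imp4, Bop1, Pes1, Wdr12, Fbl, Ncl, Npm1, Dkc1, Nob1 and Tsr1) with a mean of at least 10 RNA-seq counts per library. The name pattern found 65 genes, and Nol4 was left out because it had no count. The 64 were sorted by role into RNA polymerase I (5 genes), the box C/D snoRNP (3), the box H/ACA snoRNP (2), the UTP-A and UTP-B complexes (5), other proteins of the small subunit processome (17), late small subunit factors (3), the PeBoW complex (3), other large subunit factors (12), the RNA exosome (10) and the nucleolar chaperones Ncl and Npm1 (2). Nol3 and Nol4l carry a nucleolar name, but they are not known ribosome assembly factors and were kept only because the name pattern took them in.

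RNA polymerase I transcribes the rRNA genes in the nucleolus into 1 long precursor. Small nucleolar ribonucleoproteins (snoRNPs) guide its modification, the small subunit processome folds and cleaves it, large subunit factors such as PeBoW shape the other part, and the RNA exosome trims the ends and degrades the spacers. Cells that grow and divide need many new ribosomes, and stem cells of the hair follicle are known for low rates of protein synthesis.

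The cells came from C57BL/6J mouse hair follicle stem cell (HFSC) organoids, grown as a 3D–3C culture for 2 weeks and then sorted into α6+CD34+ HFSCs and α6+CD34- progenitors, either untreated or given the acetylated polyamine N1-acetylspermidine (N1-AcSpd) for 72 h. RNA-seq and Ribo-seq, which sequences the mRNA fragments that ribosomes protect (footprints), were made from each of the 4 groups for 2 donor mice, so that every group had n = 2 per assay and the 16 libraries came from 2 animals. P values therefore measured only the spread between cultures of 2 mice. RNA-seq libraries held 21612795 to 31524062 counts and Ribo-seq libraries only 34475 to 268052 footprints.

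The sorted fractions differed in the RNA of Cd34, the marker that separated them in the sort. Cd34 RNA lay between 67.4 and 90.7 CPM (counts scaled to a common library size) in the 4 HFSC libraries. In the 4 progenitor libraries it lay between 2.32 and 5.36 CPM. Of the endothelial markers, Cdh5 was at 0 in all 8, Kdr at 0 to 0.34 CPM and Pecam1 at 0.34 to 1.62 CPM. The 2 RNA-seq libraries of treated HFSCs stood apart in one respect. Across 12256 genes, the difference between mouse 1 and mouse 2 correlated positively among the other 3 groups (Pearson's r across genes 0.35 to 0.59) and negatively with treated HFSCs (r = -0.57 to -0.40), so these libraries went against their mouse numbers. Cd34 followed the group labels in all 8 RNA-seq libraries, and the values below used no pairing of the mice unless stated.

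The RNA of most ribosome assembly genes was slightly higher in cells given N1-AcSpd, in both cell types. Averaged over progenitors and HFSCs, 59 of 64 members were higher in treated cells and 5 lower. Their median log2 fold change was 0.22, against 0.00 over the 14224 genes tested. At an adjusted P below 0.05 (edgeR quasi-likelihood test, Benjamini-Hochberg over all genes), 6 members passed, all higher, where 1.65% of all genes passed in either direction. At an unadjusted P below 0.05, 41 members were higher and 0 lower, where 8.58% of all genes were higher. In 32 members, all 4 treated libraries lay above all 4 untreated ones, against 4.78% of all genes. The RNA of a sorted population is an average, so that a larger share of cells with a high level and more RNA per cell cannot be told apart, nor can their opposites where a value is lower.

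The 6 members that passed were Rrp1b, Nop56, Nop2, Nol9, Utp4 and Dkc1. Of these, Rrp1b, Nop2 and Nol9 are large subunit factors. The others belong to the box C/D snoRNP (Nop56), the UTP-A complex (Utp4) and the box H/ACA snoRNP (Dkc1). Rrp1b, a nucleolar large subunit factor on chr17:32036100-32062865 (GRCm38, plus strand), had 42.1 and 38.7 CPM in untreated progenitors and 51.6 and 56.2 CPM in treated ones. In HFSCs it had 33.7 and 31.6 CPM untreated and 51.6 and 47.5 CPM treated. The treated and untreated libraries did not overlap in either cell type. Over both, the log2 fold change was 0.51 ± 0.08 (SE, 4 libraries against 4 from the same 2 mice, adjusted p = 0.019), or 42.1% more RNA.

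Nop56, a core protein of the box C/D snoRNPs that guide methylation of rRNA, lies on chr2:130274430-130279313 (plus strand). Its RNA was at 262 and 273 CPM in untreated progenitors, 349 and 350.3 CPM in treated progenitors, 217 and 224 CPM in untreated HFSCs and 295 and 328 CPM in treated HFSCs. Every treated library was above every untreated one, with a log2 fold change of 0.44 ± 0.07 (adjusted p = 0.0202). Nop2, which methylates a cytosine of the large subunit rRNA (chr6:125131909-125144753, plus strand), rose from 136 and 141 CPM to 174 and 178 CPM in progenitors and from 119 and 118 CPM to 164 and 159 CPM in HFSCs. Its log2 fold change was 0.40 ± 0.06 (adjusted p = 0.0229).

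Nol9, a polynucleotide kinase that acts on the ends made when a spacer between the rRNAs is cut (chr4:152039321-152061494, plus strand), had 60.2 and 60.2 CPM in untreated progenitors against 76.0 and 87.7 CPM in treated ones. In HFSCs the values were 51.1 and 51.0 CPM untreated and 73.5 and 68.7 CPM treated. The untreated pairs were nearly identical and the treated pairs stood apart from them, with a log2 fold change of 0.46 ± 0.07 (adjusted p = 0.0238). Utp4, a member of the UTP-A complex that binds the precursor early (chr8:106893636-106923088, plus strand), had 118 and 114 CPM in untreated and 158 and 151 CPM in treated progenitors, and 93.2 and 88.5 CPM in untreated and 118 and 131 CPM in treated HFSCs. Here untreated progenitors reached the lower treated HFSC library, and the log2 fold change was 0.43 ± 0.07 (adjusted p = 0.0238). Dkc1, the pseudouridine synthase of the box H/ACA snoRNPs (chrX:75095854-75109777, plus strand), had 103.6 and 96.6 CPM in untreated and 120 and 122 CPM in treated progenitors, and 87.7 and 82.2 CPM in untreated and 123 and 113 CPM in treated HFSCs. Its log2 fold change was 0.37 ± 0.07 (adjusted p = 0.0391), and with the mouse as a replicate block the adjusted p was 0.0539. Leaving out any 1 of the 8 libraries lowered the number past the threshold from 6 to between 0 and 2, and it was 2 (Nop56 and Utp4) without HFSC N1-AcSpd replicate 1, 1 (Nol9) without progenitor N1-AcSpd replicate 1 and 0 without any other library, while the median over all members stayed between 0.21 and 0.23.

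**Figure D1:**
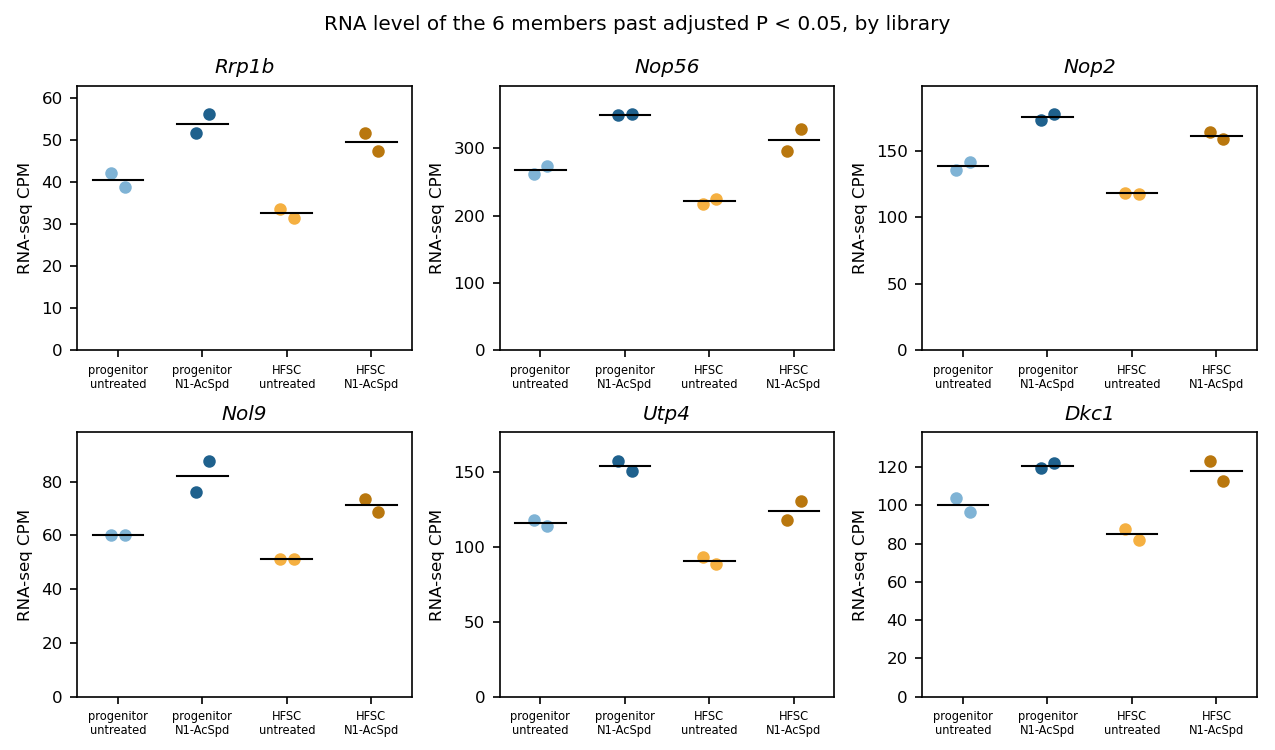
RNA-seq CPM (TMM-scaled, vertical axis from 0) of the 6 members past an adjusted P of 0.05, with 1 point per library and a line at the mean of each group of 2. In each panel both treated libraries of a cell type lie above both untreated libraries of that cell type.

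Higher values ran through nearly all steps of the pathway, as the plot of all members shows. Among the 12 other large subunit factors, 10 were higher and 9 passed an unadjusted P of 0.05, with a median log2 fold change of 0.32 that included the called genes Rrp1b, Nol9 and Nop2. All 3 box C/D proteins were higher: besides Nop56, the partner scaffold Nop58 had a log2 fold change of 0.33 ± 0.09 (adjusted p = 0.107) and the methyltransferase Fbl 0.19 ± 0.06 (adjusted p = 0.197). All 3 PeBoW members, which form 1 complex needed for the large subunit rRNAs, were higher by similar amounts, with log2 fold changes of 0.32 ± 0.08 for Wdr12, 0.29 ± 0.07 for Bop1 and 0.20 ± 0.07 for Pes1 (adjusted p = 0.0964, 0.0819 and 0.212). None of these 5 passed the adjusted threshold on its own.

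In the small subunit branch, all 17 other processome members were higher, 9 of them at an unadjusted P below 0.05, with a median of 0.20. Rrp9, a protein of the U3 snoRNP, came closest to the adjusted threshold with 0.34 ± 0.07 (adjusted p = 0.0585), and Nol6, the processome member with the most RNA, had 0.22 ± 0.07 (adjusted p = 0.159). All 5 UTP-A and UTP-B members were higher (median 0.23). The late factors Tsr1, Nob1 and Rrp12 were all at an unadjusted P below 0.05. Nob1, the nuclease that makes the final end of the small subunit rRNA, had 64.3 and 64.8 CPM in untreated progenitors, 65.3 and 77.8 CPM in treated ones, 58.6 and 57.2 CPM in untreated HFSCs and 71.7 and 71.9 CPM in treated HFSCs, with a log2 fold change of 0.23 ± 0.08 (adjusted p = 0.193).

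The chaperones had the highest CPM of all members. Ncl, which binds the precursor rRNA and nucleolar chromatin, had 885 and 905 CPM in untreated progenitors, 1020.1 and 1033 CPM in treated ones, 846 and 742 CPM in untreated HFSCs and 1107 and 975 CPM in treated HFSCs. Its treated libraries did not overlap the untreated ones in either cell type, at a log2 fold change of 0.29 ± 0.08 (adjusted p = 0.114). Npm1, a histone chaperone of the nucleolus, had 0.19 ± 0.07 (adjusted p = 0.256).

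RNA polymerase I had 4 of 5 subunits higher (median 0.22). Polr1b and Polr1a, which form the catalytic core, had log2 fold changes of 0.37 ± 0.09 and 0.22 ± 0.08, and Polr1e, a subunit specific to this polymerase, 0.32 ± 0.09 (adjusted p = 0.0989, 0.221 and 0.121). All 3 were at an unadjusted P below 0.05. Polr1c and Polr1d, which RNA polymerase III also contains, had -0.04 ± 0.08 and 0.09 ± 0.10 (adjusted p = 0.869 and 0.748). Polr1b had 93.2 and 105 CPM in untreated progenitors against 108 and 133 CPM in treated ones, and 86.0 and 85.2 CPM in untreated HFSCs against 128 and 109 CPM in treated ones. Whether the shared and the specific subunits differed in their response was not tested.

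The exosome had the lowest median of the 10 role groups, with 9 of 10 members higher, 4 at an unadjusted P below 0.05 and a median of 0.13. Among them Exosc1 and Exosc6, both of its core, had 0.33 ± 0.11 and 0.26 ± 0.07, and Exosc10, its nuclear nuclease, 0.07 ± 0.07 (adjusted p = 0.206, 0.134 and 0.674). Outside it, Nop53, which recruits the exosome to the large subunit precursor, was the only ribosome assembly member whose treated HFSC libraries both lay below the untreated ones (293 and 295.5 CPM against 296.1 and 337 CPM), at -0.08 ± 0.08 over both cell types (adjusted p = 0.693). The box H/ACA protein Nop10 (0.10 ± 0.15) and the large subunit factor Rrp1 (-0.03 ± 0.08) were also near 0. Of the 2 genes with only the name, Nol3 had 0.34 ± 0.23 and Nol4l, with 0.11 to 0.44 CPM per kb of coding sequence, -0.22 ± 0.55.

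**Figure D2:**
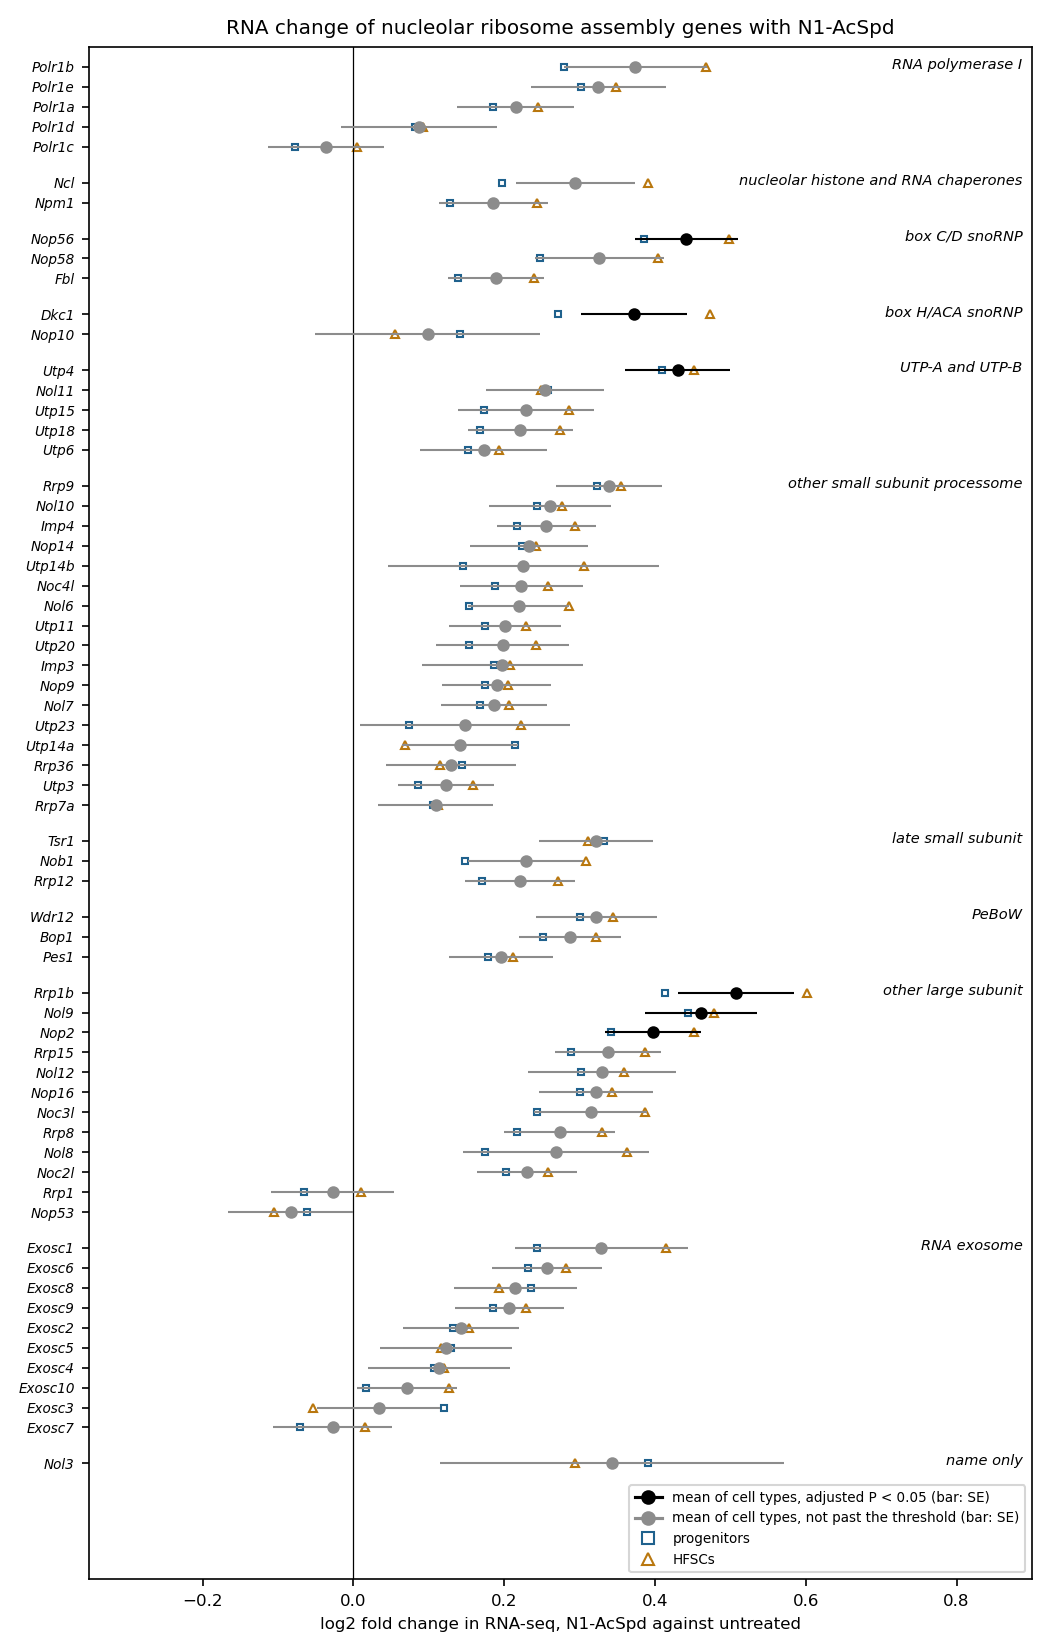
Log2 fold change in RNA-seq between N1-AcSpd and untreated cells for 63 members by subcomplex (Nol4l, with a standard error of 0.55, is not drawn). Circles give the mean over both cell types with its SE, black where adjusted P was below 0.05, and open squares and triangles give progenitors and HFSCs. The circles of 59 of these 63 members lie above 0.

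Within a single cell type no member passed the adjusted threshold in edgeR without pairing of the mice. With the mouse as a replicate block, as labelled, 0 passed in either. An alternative chosen after seeing the data also swapped the mouse labels of the treated HFSC libraries. In it, 3 members passed in progenitors (Nol9, Nop56 and Utp4) and 7 in HFSCs. Its share of all genes within a single cell type is not given, so these counts cannot be set against one. That alternative also passed far more of all genes over both cell types than the main fit, with counts given at the end. Its calls are therefore not read as a result about the members. In progenitors, the main fit had 59 members higher (median 0.18, all genes 0.00). There 0 passed the adjusted threshold, where 0.267% of all genes did. At an unadjusted P below 0.05, 16 were higher against 4.9% of all genes, and 0 were lower. DESeq2 also called 0. In 52 members both treated libraries exceeded both untreated ones, against 19.6% of all genes. The smallest P belonged to Nol9 (log2 fold change 0.44 ± 0.11, adjusted p = 0.2), Utp4 (0.41 ± 0.10, adjusted p = 0.204) and Nop56 (0.39 ± 0.10, adjusted p = 0.233).

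In HFSCs, 61 members were higher (median 0.26, all genes 0.01). Again 0 passed in edgeR, where 0% of all genes did. DESeq2, which called more of all genes than edgeR over both cell types, called 3 members (Rrp1b, Nop56 and Nop2). The 0% is the share in edgeR only and is no measure for these 3. The share of all genes that DESeq2 called in HFSCs is not given, so the 3 are not read as a result about the members. At an unadjusted P below 0.05, 30 members were higher against 5.01% of all genes, and in 48 both treated libraries exceeded both untreated ones against 18.3% of all genes. Rrp1b (0.60 ± 0.11, adjusted p = 0.164), Nop56 (0.50 ± 0.10, adjusted p = 0.201) and Nop2 (0.45 ± 0.09, adjusted p = 0.202) had the smallest P.

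The difference between the 2 responses was tested as an interaction. It called 0 members and 0% of all genes by edgeR, and 0 members at an unadjusted P below 0.05 against 0.837% of all genes, with 0 also by DESeq2. The median difference, HFSC minus progenitor response, was 0.06 over the members and 0.01 over all genes. The members with the smallest P were Dkc1 (0.20 ± 0.14), Rrp1b (0.19 ± 0.15) and Ncl (0.19 ± 0.16), all with an adjusted p of 1. Without HFSC N1-AcSpd replicate 1 these values were 0.11, 0.099 and 0.070. A P above the threshold does not show that the responses were equal.

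Without treatment, HFSCs held slightly less RNA of these genes than progenitors. In untreated cells 53 of 64 members were lower in HFSCs than in progenitors and 11 higher (median log2 fold change -0.13, all genes 0.00). No member passed the adjusted threshold in edgeR or DESeq2, where 0.148% of all genes did in edgeR. At an unadjusted P below 0.05, 8 members were lower and 0 higher, against 4.17% of all genes lower, and in 35 both HFSC libraries lay below both progenitor libraries, against 20.9% of all genes. The smallest P belonged to 3 genes that also rose with N1-AcSpd, namely Utp4 (-0.35 ± 0.10, adjusted p = 0.245), Rrp1b (-0.31 ± 0.11, adjusted p = 0.374) and Nop56 (-0.28 ± 0.10, adjusted p = 0.379). The untreated HFSC libraries enter both comparisons, so a low value there shows in each.

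With N1-AcSpd the median lay closer to 0, a difference covered by the interaction test above. In treated cells 49 members were lower in HFSCs (median -0.07, all genes 0.01), 0 passed the adjusted threshold in edgeR or DESeq2 where 0.71% of all genes did in edgeR, and 3 were lower at an unadjusted P below 0.05 against 5.05% of all genes. Both HFSC libraries lay below both progenitor libraries for 19 members, against 18.2% of all genes. The 3 were Utp4 (-0.31 ± 0.10, adjusted p = 0.26), Polr1d (-0.36 ± 0.15, adjusted p = 0.395) and Rrp9 (-0.24 ± 0.10, adjusted p = 0.396). Polr1d RNA had 156 and 146 CPM in untreated progenitors, 168 and 151 CPM in treated ones, 122 and 111 CPM in untreated HFSCs and 105 and 143 CPM in treated HFSCs, and its untreated difference was -0.37 ± 0.15 (adjusted p = 0.451). The treated HFSC libraries lay far apart, so that the treated difference was -0.18 without HFSC N1-AcSpd replicate 1 and -0.60 without HFSC N1-AcSpd replicate 2.

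**Figure D3:**
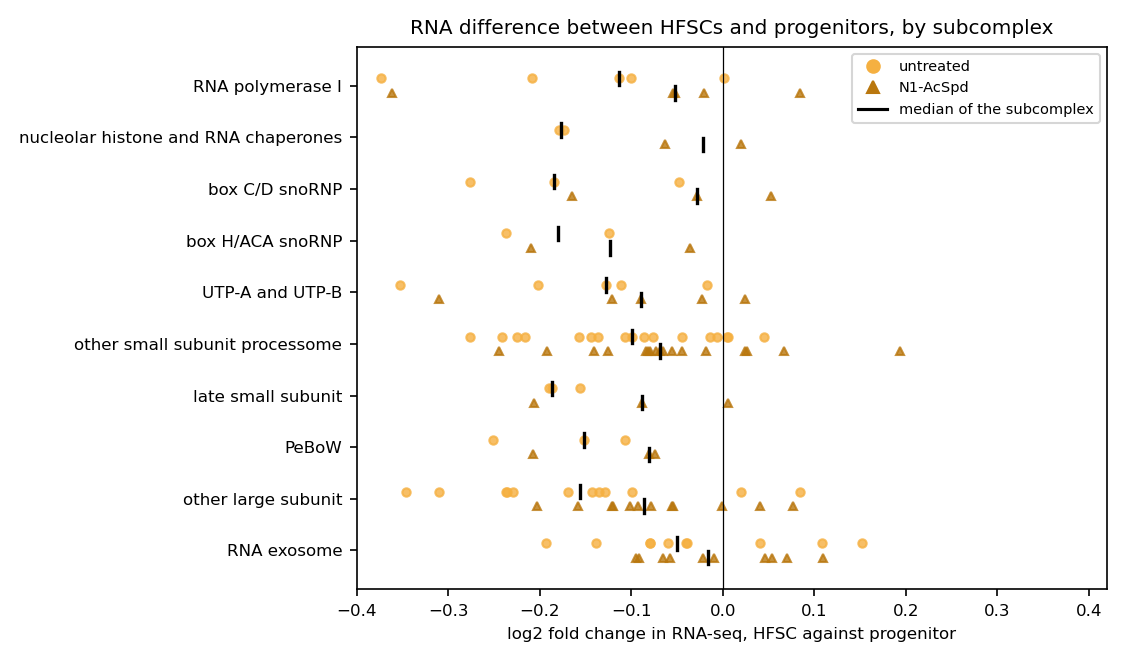
Log2 fold change in RNA-seq between HFSCs and progenitors for the members of 10 subcomplexes, with circles for untreated and triangles for treated cells and a black line at the median of each. The medians lie below 0 in all 10 subcomplexes in both states.

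Seen library by library, the members formed 4 levels with little spread between mice. For each library the median over members of log2 CPM minus the gene's mean over the 8 libraries was 0.14 and 0.15 in treated progenitors, 0.08 and 0.09 in treated HFSCs, -0.05 and -0.06 in untreated progenitors, and -0.17 and -0.19 in untreated HFSCs. The same value over all tested genes stayed between -0.01 and 0.02. Treated progenitors had the highest mean of the 4 groups for 47 members and untreated HFSCs the lowest for 52. In 44 members both held. In 58 members, Dkc1, Ncl and Nop56 among them, the mean in treated HFSCs was above that in untreated progenitors.

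As a share of all RNA-seq counts, the members took 0.705% and 0.691% in untreated progenitors, 0.796% and 0.77% in treated ones, 0.672% and 0.637% in untreated HFSCs and 0.766% and 0.749% in treated HFSCs. The order of the shares was the same as that of the medians. Without Ncl and Npm1 the shares were 0.442% to 0.473% in the 4 untreated libraries and 0.508% to 0.54% in the 4 treated ones, so the split between treated and untreated libraries was also there without the chaperones.

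**Figure D4:**
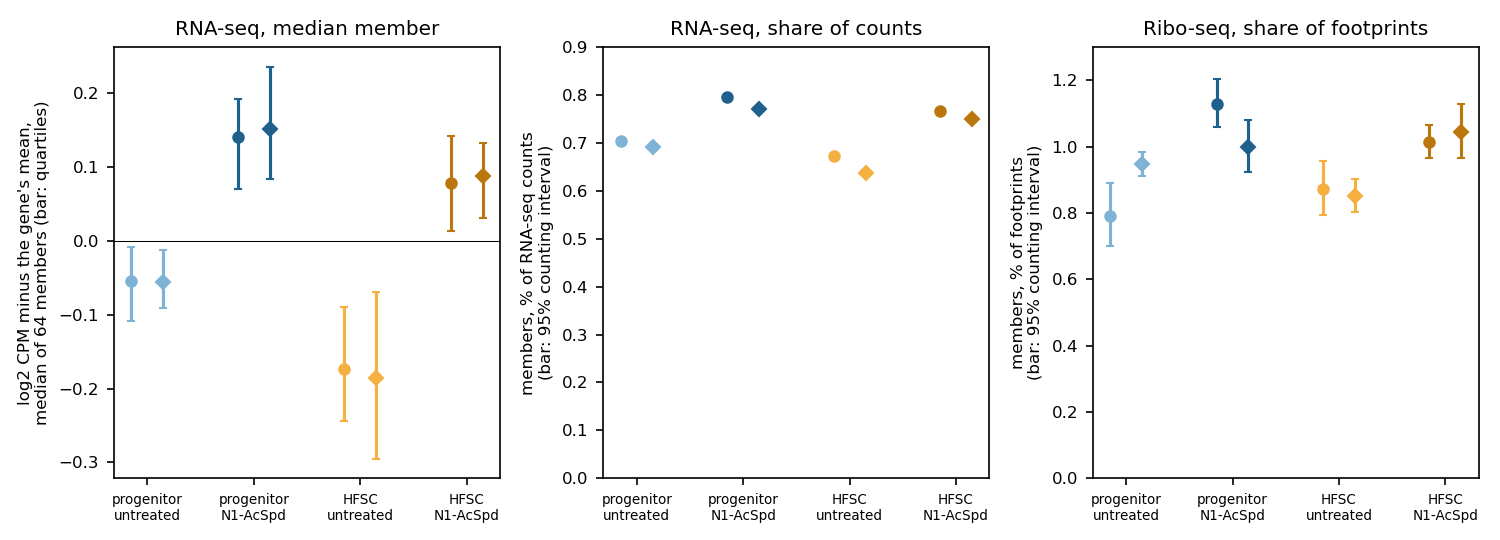
Left, median over the 64 members of log2 RNA-seq CPM minus the gene's mean, with quartiles as bars. Middle and right, the members' share of RNA-seq counts and of footprints in percent, with 95% binomial intervals that cover counting error only. Circles are mouse 1 and diamonds mouse 2 by label, and in the left and middle plots the 4 treated libraries lie above the 4 untreated ones.

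Other nucleolar and ribosome assembly genes that the name pattern missed were also mostly higher. Of 94 tested genes in a list of such factors, 90 were higher with N1-AcSpd over both cell types, 65 at an unadjusted P below 0.05 with 0 lower, and 11 passed the adjusted threshold, all higher (median 0.24). The 3 with the smallest P were Nolc1, a chaperone of snoRNPs (0.49 ± 0.06, adjusted p = 0.0116), Ccdc86 (0.47 ± 0.07, adjusted p = 0.0165) and Bysl, a late small subunit factor (0.50 ± 0.08, adjusted p = 0.0202). Of 16 Pol I initiation factors and shared subunits, 13 were higher and 6 at an unadjusted P below 0.05, with 0 past the adjusted threshold and a median of 0.14. Among them the upstream binding factor Ubtf had 0.23 ± 0.07 (adjusted p = 0.155) and Myc, a transcription factor known to drive ribosome synthesis, 0.29 ± 0.13 (adjusted p = 0.316). Of 8 exosome cofactors, 6 were higher and 1 at an unadjusted P below 0.05, with a median of 0.07.

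Some markers of other cell states differed with the treatment as well. The summed RNA of 5 suprabasal markers was 50.1 to 61.9 CPM in untreated and 137 to 215 CPM in treated progenitors, and 27.4 to 27.7 CPM in untreated and 49.6 to 70.4 CPM in treated HFSCs, and over both cell types Krt1 (log2 fold change 1.65, adjusted p = 0.0202) and Ivl (1.17, adjusted p = 0.00125) passed the threshold while Krt10, Lor and Flg did not (Flg was at 0 in 2 libraries). The summed RNA of 6 HFSC markers was 515 to 564 CPM in untreated and 391 to 414 CPM in treated progenitors, and 1224 to 1387 CPM in untreated and 779 to 928 CPM in treated HFSCs. Of these only Krt15 passed the threshold (-0.98, adjusted p = 0.00548), while Cd34 had 0.22, Sox9 -0.42, Nfatc1 -0.11, Lhx2 -0.10 and Tcf3 -0.05 (adjusted p = 0.222 to 0.913). The part of these shifts in the values of the ribosome assembly genes was not tested. Basal keratinocyte markers (3 genes) summed to 33941 to 40229 CPM, and markers of fibroblasts, endothelial cells, immune cells and melanocytes to at most 10.3 CPM each in any library. The summed RNA of 5 proliferation markers overlapped between treated and untreated libraries in both cell types, at 1008 to 1324 CPM in untreated and 846 to 1221 CPM in treated progenitors and at 1149 to 1772 CPM in untreated and 1136 to 1464 CPM in treated HFSCs.

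The promoters of the members were searched for CACGTG, the E-box that Myc and related factors bind (the word reads the same on both strands). RefSeq promoter sequences (GRCm38.p6, 250 bases before to 50 after each start site) were matched for 52 of the 64 members. Of these, 11, or 21.2%, held the word, against 8.09% of 27025 genes with a promoter. The members had to pass an RNA-seq count while the 27025 genes did not, so the shares are not of like sets. Of the 6 members past the adjusted threshold, Nop2 and Utp4 held it. The RNA change did not separate the 2 classes: the median log2 fold change with N1-AcSpd was 0.23 in the 11 members with the word (0.11 to 0.43) and 0.23 in the 41 without it (-0.22 to 0.51). A match is a description of the letters, not evidence of binding. The sites of Nop2 and Utp4 are shown, with those of Utp18, Nol11, Imp4 and Exosc5 as examples from the other members with the word. Utp4, Utp18 and Nol11 all belong to UTP-A and UTP-B. Each site has 12 bases on each side, 5′ to 3′ on the strand of the gene, with the word in capitals.
Nop2: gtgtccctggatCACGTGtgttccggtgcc
Utp4: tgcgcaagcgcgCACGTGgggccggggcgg
Utp18: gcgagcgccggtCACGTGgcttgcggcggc
Nol11: cttgagcgttcgCACGTGgtctagactcca
Imp4: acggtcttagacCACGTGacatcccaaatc
Exosc5: taaacgctgagcCACGTGctagggccaact
The window of Nop2 is chr6:125131811-125131840 (plus strand), and its word ends 54 bases before the start site. That of Utp18 is chr11:93885769-93885798 (minus strand), 14 bases before its start site, and that of Nol11 chr11:107189407-107189436 (minus strand), 37 bases before it. Exosc5 has the word 38 bases before the start site (chr7:25659097-25659126, plus strand) and Imp4 115 bases before it (chr1:34439696-34439725, plus strand). In Utp4 the word begins 15 bases after the start site (chr8:106893643-106893672, plus strand).

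Ribo-seq leaned the same way in the fit of both mice, but could not show it for single genes. Of 63 members tested, 44 were higher in treated progenitors (median log2 fold change 0.18, all genes -0.07), 40 in treated HFSCs (0.18, all genes 0.00) and 41 over both (0.17, all genes -0.04). Only 36 members reached a mean of 10 footprints per library. No member passed the adjusted threshold in edgeR or DESeq2, and the shares of all 8440 genes that passed in edgeR were 0.0237%, 0% and 0.0355%. At an unadjusted P below 0.05 there were 2, 0 and 2 members, against 2.86%, 3.45% and 4.7% of all genes in either direction. The medians differed by mouse: in progenitors the median was 0.68 in mouse 1, whose untreated library was the shallowest, and -0.05 in mouse 2, whose untreated library was the deepest. In HFSCs it was 0.37 in mouse 1 and 0.03 in mouse 2, and over both cell types 0.59 and -0.09. The footprints of all tested genes also shifted by mouse. Their median log2 CPM minus the gene's mean was -0.28 in untreated and 0.03 in treated progenitors of mouse 1. In mouse 2 it was 0.20 and -0.02. For HFSCs it was -0.11 and 0.13 in mouse 1, and 0.13 and -0.06 in mouse 2. The members' medians by mouse therefore include a shift of all genes. Without the deepest library the fitted median in progenitors was 0.70. The fitted median in HFSCs turned to -0.03 without the first treated library.

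The members' share of all footprints was 0.792% and 0.947% in untreated progenitors and 1.13% and 0.999% in treated ones. It was 0.872% and 0.851% in untreated HFSCs and 1.01% and 1.04% in treated HFSCs. The treated libraries lay above the untreated ones in both cell types, as they did for RNA, with counting intervals that met in progenitors (0.911% to 0.985% for the untreated library of mouse 2 against 0.923% to 1.08% for the treated one). With 2 libraries against 2, an exact permutation test cannot go below p = 0.333, so no p is given.

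Between cell types the footprints gave medians near 0. Of the 63 members, 37 were lower in untreated HFSCs (median -0.06, all genes -0.03) and 33 in treated HFSCs (-0.05, all genes 0.04). Again 0 members passed in edgeR or DESeq2, where 0.0118% and 0.0237% of all genes passed in edgeR, and 1 was at an unadjusted P below 0.05 in each, against 2.62% and 3.4% of all genes. That member was Noc4l, the partner of Nop14 in the small subunit processome. It had 5 and 29 footprints in untreated progenitors, 25 and 12 in treated ones, 0 and 4 in untreated HFSCs and 6 and 8 in treated HFSCs.

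In CPM of footprints, the values were 122 and 121 in untreated progenitors, 311 and 189 in treated ones, 0 and 31.4 in untreated HFSCs and 42.2 and 128 in treated HFSCs. The fitted log2 fold change between HFSCs and progenitors was -1.82 ± 0.90 untreated and -1.49 ± 0.71 treated (adjusted p = 1 in both). With a library at 0 the first value depends on the prior count of 2, and it was -2.79 without HFSC untreated Ribo-seq replicate 2. The second was -0.84 without HFSC N1-AcSpd Ribo-seq replicate 1. For RNA the same differences were -0.14 ± 0.12 and -0.07 ± 0.12. Noc4l also had the smallest P for footprints over both cell types with N1-AcSpd (1.11 ± 0.59, adjusted p = 0.969).

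Translational efficiency (TE), the change in footprints relative to the change in RNA, had medians near 0 for the members. The median log2 TE change was 0.00 in progenitors, -0.07 in HFSCs and -0.06 over both with N1-AcSpd (all genes -0.15, -0.03 and -0.10), and 0.03 and 0.06 between HFSCs and progenitors, untreated and treated (all genes -0.04 and 0.08). No member and 0% of 8439 genes passed an adjusted P of 0.05 in edgeR in any of the 5, and no member did in DESeq2. At an unadjusted P below 0.05 there were 5, 4, 9, 3 and 1 members of 63, against 6.22%, 6.99%, 7.55%, 5.42% and 5.96% of all genes. As shares of the 63 members these counts were 7.94%, 6.35%, 14.3%, 4.76% and 1.59%, close to or below the share of all genes except over both cell types, where 3 members were higher and 6 lower.

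Among members with at least 10 footprints per library on average, Nop53 had a higher TE with N1-AcSpd at an unadjusted P below 0.05 (log2 1.29 ± 0.46 in progenitors, adjusted p = 0.798, and 0.85 ± 0.33 over both, adjusted p = 0.598). It had 2 and 35 footprints in untreated and 23 and 20 in treated progenitors, and 11 and 18 in untreated and 36 and 6 in treated HFSCs. The TE value in progenitors was 2.67 without progenitor untreated Ribo-seq replicate 2, the deepest library, and the value over both fell to 0.31 without HFSC N1-AcSpd Ribo-seq replicate 1 and was 1.54 without progenitor untreated Ribo-seq replicate 2. Npm1 (0.91 ± 0.36 in progenitors), Noc4l (1.15 ± 0.49 over both) and Polr1c (0.70 ± 0.32 over both) were the other ones higher at that threshold. Lower were Utp6, a UTP-B member (-1.19 ± 0.52 in progenitors), Rrp9 (-1.15 ± 0.54 in progenitors) and Nol6 (-1.12 ± 0.42 in HFSCs), with adjusted p between 0.598 and 0.798 for these values. Single libraries moved several of these values by over 1.5 times. Without progenitor untreated Ribo-seq replicate 2, Utp6 was at -0.23 and Rrp9 at 0.078, and without progenitor N1-AcSpd Ribo-seq replicate 1, Npm1 was at 0.51 and Rrp9 at -1.77. Polr1c was at 0.41 without HFSC untreated Ribo-seq replicate 2. Between cell types the TE of Noc4l was -2.33 ± 0.75 untreated and -1.80 ± 0.54 treated (adjusted p = 0.88 and 0.76). The treated value was -0.90 without HFSC N1-AcSpd Ribo-seq replicate 1. Without HFSC untreated Ribo-seq replicate 2 the only untreated HFSC library left held no Noc4l footprint, and the fitted values ran to -9.57 between untreated cell types and 4.77 over both with N1-AcSpd, so they have no fixed size.

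Levels per length spanned a wide range. The deposited counts followed the coding sequence (of 1149 pairs of transcripts of 1 gene with equal coding blocks and unequal untranslated ends, 1147 had identical RNA-seq counts), so levels were divided by coding length. Npm1 led with 1608 CPM per kb, averaged over the 8 RNA-seq libraries, followed by Nop10 with 468 and Ncl with 443. Polr1d came next with 345 CPM per kb, far above Polr1c with 79.0, Polr1b with 31.1, Polr1e with 19.4 and Polr1a with 16.7. The box C/D proteins Nop56, Fbl and Nop58 lay close together at 165, 149 and 147 CPM per kb, with overlapping ranges over the libraries (125 to 201, 134 to 162 and 109 to 170). In PeBoW, Pes1 had 93.2, Bop1 56.1 and Wdr12 41.5 CPM per kb. The lowest ribosome assembly member was Utp14b with 5.24, and Nol4l had 0.247 and no footprint in any library.

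Footprints per RNA varied widely between members. The share of footprints divided by the share of RNA-seq counts, over all 8 libraries of each assay, had a median of 1.54 over the 63 members with a footprint and 1.19 over 8439 genes. It was highest in Exosc2 (5.79, from 166 footprints), Exosc8 (4.26), Nop16 (4.13) and Exosc4 (4.02), and lowest in Npm1 (0.349, from 414 footprints), Fbl (0.356), Rrp7a (0.384) and Wdr12 (0.498).

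The 4 lowest members share a feature that the name pattern did not use: much of their coding sequence also occurs elsewhere in the genome. Of the 28-base words of the coding sequence, about the length of a footprint, only 7.86% were found at a single place in Fbl, 12.01% in Npm1, 33.9% in Rrp7a and 44.2% in Wdr12, against at least 95% in 48 members. The fifth member under 50% was Pes1 with 41.7%, and its ratio was 1.83, above the median. The median ratio was 0.384 in these 5 and 1.58 in the 48. Over the 63 members the rank correlation of ratio and uniqueness was 0.22 (Spearman's rho, the points sharing the same 16 libraries). A footprint that fits several places cannot be placed by its sequence alone, and the part of this in the low ratios was not tested, but the footprint and TE values of Fbl, Npm1, Rrp7a and Wdr12 carry this limit.

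**Figure D5:**
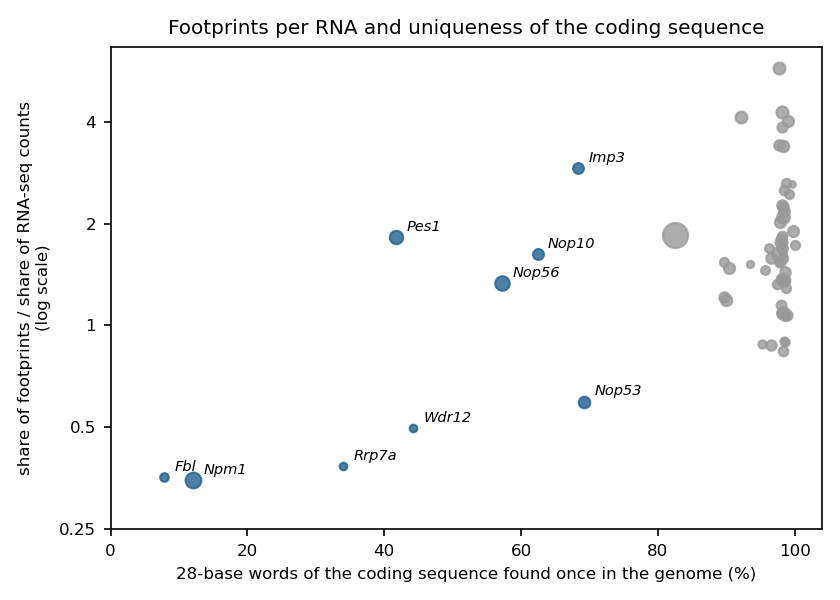
Share of footprints divided by share of RNA-seq counts (log axis) against the percentage of 28-base coding words found once in the genome, for 63 members, with point size rising with the number of footprints. Members under 70% are named, and Fbl, Npm1, Rrp7a and Wdr12 lie below a ratio of 0.5 on the left.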

How the data were processed

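RNA-seq (ribosomal RNA depleted) and Ribo-seq (24–36 nt fragments, 16 PCR cycles, no molecular identifiers) were made from sorted organoid cells of 2 mice. The authors deposited raw counts per transcript. Per their methods, adapters were cut off with flexbar, and bowtie took out reads from rRNA and tRNA before alignment with STAR. The submitters' processing notes name Bowtie 1.2.3, STAR 2.7.3a, featureCounts and the build GRCm38.p5. Tables of the authors' own comparisons hold fold changes and P values, and none of these were used. The transcript with the most footprints stood for each gene.

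Counts were tested with edgeR 4.0.16 in R 4.3.3 (TMM, quasi-likelihood, 4 groups per assay, mean of at least 1 count, prior count 2, Benjamini-Hochberg over all genes), and TE as the interaction of assay and group over 16 libraries. CPM are TMM-scaled. SE is the size of the log2 fold change fitted without the prior count, divided by the root of F. The log2 fold changes printed beside it use the prior count of 2. An estimate and its SE therefore differ in scale where counts are low. DESeq2 1.42.0, size factors, filters, transcript sums, the mouse as a block and each library left out served as alternatives. The scripts were tested on simulated data.

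Same-numbered samples come from the same mouse per the labels. The difference between mice correlated between groups at r = -0.57 to 0.59 in RNA-seq and 0.02 to 0.11 in Ribo-seq. The fit had no block, and the blocked fit was an alternative. The members and lists were chosen with earlier results of these data known. Named members were those past the adjusted threshold (up to 8 per direction, or the 3 with the smallest P), the most abundant of each subcomplex, those at an unadjusted P below 0.05 with at least 10 footprints on average, fixed core members, and Nol3 and Nol4l. Polr1e, Nop10, Rrp1, Exosc1, Exosc6, Exosc2, Exosc4, Exosc8, Nop16, Rrp7a and Utp14b were named after their values were seen. Promoters came from RefSeq, and 12 members (Nol6, Utp6, Nol3, Nop53, Exosc9, Utp11, Bop1, Exosc4, Fbl, Npm1, Rrp12 and Utp23) had no entry. A count of 3 was 9.52e-06% to 1.39e-05% of an RNA-seq library and 0.00112% to 0.0087% of a Ribo-seq library.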

Additional observations from a re-analysis of the deposited data

Results flagged for a closer look

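Wdr12 had fitted footprint changes of opposite sign in the 2 cell types, a difference that did not pass the interaction test. It had 1 and 6 footprints in untreated and 3 and 2 in treated progenitors, and 2 and 7 in untreated and 1 and 0 in treated HFSCs. In CPM both treated libraries lay above both untreated ones in progenitors and below them in HFSCs. The fitted log2 fold changes were 0.28 and -1.47, and their difference was -1.76 (HFSC minus progenitor, edgeR interaction, unadjusted p = 0.0969, adjusted p = 1). For RNA its log2 fold change was 0.30 ± 0.11 in progenitors and 0.34 ± 0.11 in HFSCs. Most libraries held no more than 3 of its footprints, and only 44.2% of its 28-base coding words were found at a single place.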

How the results depend on the processing

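The direction of the RNA change held in every alternative run: with N1-AcSpd over both cell types, 58 to 60 of 64 members were higher and the median log2 fold change was 0.21 to 0.23. The number past the adjusted threshold did not hold. It was 6 at first, 13 with DESeq2, and 0 to 2 when 1 library was left out: 2 without HFSC N1-AcSpd replicate 1, 1 without progenitor N1-AcSpd replicate 1 and 0 without any 1 of the other 6, which leaves fewer samples in the fit, while 27 to 37 members then had an unadjusted P below 0.05. It was 5 with the mouse as a replicate block, which changed no other RNA call of a member, 4 with transcripts summed and 8 with no filter on low counts, which added Rrp15 and Rrp9. Over all genes, 235 passed, against 572 with DESeq2, 413 with no filter, 142 with the block, 145 with transcripts summed and 1303 with the block and swapped labels. For the fits with 1 library left out no count over all genes is given. The fall from 6 members is therefore not read as particular to them. In HFSCs DESeq2 called 3, with no share of all genes given beside them. In all 5 other RNA comparisons leaving out 1 library gave 0 to 0. At an unadjusted P below 0.05 the counts were 16 in progenitors, 30 in HFSCs, 41 over both, 8 between untreated and 3 between treated cell types. With the mouse as a replicate block and the mouse labels swapped between both RNA-seq libraries of treated HFSCs, an alternative chosen after seeing the data, 3, 7, 26 and 1 members passed in progenitors, HFSCs, both, and between untreated cell types, and 8 had a TE at an unadjusted P below 0.05 in progenitors. The count over all genes for this alternative is given only over both cell types. Its other counts are therefore not read as results about the members.

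Footprint medians with 1 library left out ranged from 0.02 to 0.70 in progenitors, -0.03 to 0.28 in HFSCs, 0.08 to 0.42 over both, -0.22 to 0.46 between untreated and -0.15 to 0.052 between treated cell types. The lowest in HFSCs came without HFSC N1-AcSpd replicate 1, and the highest in progenitors and between untreated cell types without progenitor untreated replicate 2. The median between treated cell types was -0.10 with DESeq2, -0.10 with RLE size factors, 0.089 at a mean of at least 10 counts, -0.020 with only the libraries compared and -0.12 with transcripts summed, and the cause was not tested. The replicate block kept the other medians within the spread between mice (0.23 in progenitors).

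TE counts at an unadjusted P below 0.05, with 1 library left out, ranged from 3 to 8 in progenitors, 1 to 9 in HFSCs, 3 to 13 over both, 2 to 9 between untreated and 1 to 5 between treated cell types. They were 14, 6 and 4 with DESeq2 over both and between untreated and treated cell types. A mean of at least 10 counts gave 3, 1, 5 and 1 in progenitors, HFSCs, both and untreated cell types. Transcript sums gave 5, 1 and 3 over both and between untreated and treated cell types, RLE gave 2 between treated cell types, the replicate block 2 in HFSCs and 2 between treated cell types, and an adjusted threshold 0 in all 5. The shares of all genes at an unadjusted P were given for the main fit only. The TE counts of the alternatives are therefore not read as an excess or lack of members. The TE change of Rrp9 in progenitors ranged from -1.77 to 0.078 with 1 library left out, and it turned to 0.078 without progenitor untreated Ribo-seq replicate 2. The depth of Ribo-seq, 7.78 times higher in the deepest than in the shallowest library, limits all footprint results.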
